A study of Mus musculus with 8 samples.

Results

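Immunoglobulin heavy chain (Ighv) and kappa light chain (Igkv) variable segments were followed in 8 RNA-seq libraries of mouse small intestinal mesenchyme. The members are the rows of the gene table whose name starts with Ighv or Igkv and whose highest value over the 4 P14 libraries was 0.5 FPKM or more. FPKM scales the reads of a gene by its length and by the size of the library, and for segments of this length 0.5 FPKM stood for 3 or 4 reads. The rule took 107 of the 345 Ighv and Igkv rows, among 46635 rows in all: 58 of 183 Ighv rows and 49 of 162 Igkv rows. The members were chosen by their P14 FPKM, so their levels at P14 against E17.5 are given as a description with no test.

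The ages were P14, 14 days after birth, with 4 libraries, and the fetal stage E17.5, also with 4 libraries. All mice were wild type, with no transgene or treatment, and the design text names 4 mice of each age. The sources used here do not give the strain. Per the labels' protocols, EDTA was used to take the epithelium off the whole gut, and RNA came from the rest of the small bowel, so muscle, connective tissue, vessels, nerves and any resident blood cells were sequenced together.

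Each B cell builds 1 heavy and 1 light chain gene by joining a V segment to shorter segments and then reading through to a constant region. The V segment used is therefore a tag of the cell and of its offspring. Kappa and lambda are the alternative light chains. Ighm encodes the constant region of IgM, the first class a B cell makes, and Igha that of IgA, the class that plasma cells of the gut wall secrete. A plasma cell holds far more immunoglobulin RNA than a resting B cell, so a few plasma cells can supply much of the V segment RNA of a piece of tissue.

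The libraries held 16660998 to 19496632 reads assigned to genes. P14 replicates 1 and 2 stood apart from the other P14 libraries. In P14 replicate 1 the summed level of 11 pan-epithelial genes was 3773 FPKM, against 120 to 591 FPKM in the other P14 libraries and 31.7 to 53.5 FPKM at E17.5. The same library had 2697 FPKM over 7 smooth muscle genes, against 7449 to 10497 FPKM in the other P14 libraries and 4690 to 5156 FPKM at E17.5. In P14 replicate 2 the summed level of 20 mature B cell genes was 21.7 FPKM, against 121 to 194 FPKM in the other P14 libraries and 24.3 to 31.0 FPKM at E17.5. In bulk tissue, fewer cells of a type and less RNA per cell cannot be told apart.

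The sequences of the segments that carried most of the signal show how closely V segments resemble each other. In V segment names the first number is the family and the rest identifies the segment. Each line is the last 300 bases of the V exon coding part of the named segment on its own strand, 5′ to 3′, from the GENCODE M21 transcripts (GRCm38), matched by name. Capitals mark the bases that differ from the closest relative among the V exons of the same locus. The pair Igkv1-117 and Igkv1-110 is shown because Igkv1-117 led the kappa locus in every P14 library and Igkv1-110 is its closest relative.
Igkv1-117: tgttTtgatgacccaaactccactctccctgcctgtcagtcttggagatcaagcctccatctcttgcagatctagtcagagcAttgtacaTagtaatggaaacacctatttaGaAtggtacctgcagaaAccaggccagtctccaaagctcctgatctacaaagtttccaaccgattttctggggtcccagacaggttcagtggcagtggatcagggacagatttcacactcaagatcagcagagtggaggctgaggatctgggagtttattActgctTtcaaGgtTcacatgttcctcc
Igkv1-110: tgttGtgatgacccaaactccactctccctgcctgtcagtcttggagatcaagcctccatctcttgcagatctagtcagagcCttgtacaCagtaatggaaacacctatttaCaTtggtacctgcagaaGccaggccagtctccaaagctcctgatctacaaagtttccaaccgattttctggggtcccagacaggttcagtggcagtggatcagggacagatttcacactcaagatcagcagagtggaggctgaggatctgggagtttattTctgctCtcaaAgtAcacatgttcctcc
The pair Ighv2-9 and Ighv2-6-8 is shown because Ighv2-9 had the highest mean of the heavy chain members.
Ighv2-9: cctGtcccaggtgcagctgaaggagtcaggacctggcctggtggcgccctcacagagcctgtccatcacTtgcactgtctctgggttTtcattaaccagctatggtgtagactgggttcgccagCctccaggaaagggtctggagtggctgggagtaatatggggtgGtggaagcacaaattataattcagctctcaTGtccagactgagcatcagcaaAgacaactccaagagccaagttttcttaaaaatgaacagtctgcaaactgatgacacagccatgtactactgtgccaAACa
Ighv2-6-8: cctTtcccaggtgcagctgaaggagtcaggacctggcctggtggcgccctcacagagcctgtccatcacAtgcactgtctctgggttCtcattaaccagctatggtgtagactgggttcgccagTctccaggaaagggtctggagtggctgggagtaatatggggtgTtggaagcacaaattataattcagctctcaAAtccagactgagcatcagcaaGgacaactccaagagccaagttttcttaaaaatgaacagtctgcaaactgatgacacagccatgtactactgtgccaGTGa
Igkv4-57 is shown, with capitals against Igkv4-55, because it was the second kappa segment of P14 replicate 2.
Igkv4-57: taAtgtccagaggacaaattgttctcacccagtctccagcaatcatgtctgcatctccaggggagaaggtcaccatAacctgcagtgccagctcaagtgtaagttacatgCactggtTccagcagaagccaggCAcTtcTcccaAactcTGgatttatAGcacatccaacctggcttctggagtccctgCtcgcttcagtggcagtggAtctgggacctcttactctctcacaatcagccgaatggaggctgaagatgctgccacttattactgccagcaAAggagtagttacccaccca

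Over the whole V exon, the kappa pair differed at 10 of 313 aligned positions and the heavy chain pair at 12 of 304, of which 11 fall in the stretch shown. Igkv4-57 differed from Igkv4-55 at 17 of 303. Over the 103 members with a matched V exon, the identity to the closest relative had a median of 95.4% and ran from 74.9% to 99.0%. No member was identical to its relative, and 10 had one at 98% or more. Igkv1-117 and Igkv1-110 share a run of 142 identical bases, so a short read from that stretch fits either, and the split between such neighbours is uncertain. How reads fitting several segments were counted, and whether strand was used, is not stated in these sources. The coordinates of the rows in the table, on GRCm39, put Igkv1-117 at chr6:68098075-68098809 on the plus strand. Ighv2-9 lies at chr12:113842717-113843008 on the minus strand and Igkv4-57 at chr6:69552959-69553484 on the minus strand. All 3 are annotated there as V segments.

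Segment RNA was plentiful at P14, and only stray reads were seen at E17.5. The summed level of all 107 members was 185, 90.0, 96.2 and 221 FPKM in P14 replicates 1 to 4, against 0, 0.357, 0.448 and 1.43 FPKM in E17.5 replicates 1 to 4. The lowest P14 library thus lay far above the highest E17.5 library. In reads, the members held 876, 556, 606 and 1416 at P14, against 0, 2, 3 and 9 at E17.5. Over all 345 rows, members or not, the totals were 3613 reads at P14 and 22 at E17.5, so the rule left out few reads.

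The heavy and kappa members each followed this pattern. The heavy chain members summed to 85.8, 27.5, 41.7 and 87.9 FPKM in the P14 libraries, against 0, 0.196, 0 and 0.854 FPKM in the E17.5 libraries. The kappa members summed to 99.5, 62.5, 54.4 and 133 FPKM at P14, against 0, 0.161, 0.448 and 0.579 FPKM at E17.5. P14 replicate 4 was the highest in both loci, while P14 replicate 2 was the lowest for the heavy chain and P14 replicate 3 for kappa.

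Single members at E17.5 came down to a handful of reads. Of the 107 members, 102 had no read in any E17.5 library. A count of 0, in 1 library or over all 4 together, allows an expected count of up to 3 reads by counting error alone. The highest E17.5 mean was that of Ighv1-18, with 5 reads (0.854 FPKM) in replicate 4, followed by Igkv15-103 with 4 reads (0.579 FPKM) in the same library. Igkv14-111 had 3 reads in replicate 3, and Igkv1-110 and Ighv1-5 had 1 read each in replicate 2. Ighv1-18 and Igkv15-103 were thus the only members at 0.5 FPKM or more in an E17.5 library. Each of the 5 segments was read in a single E17.5 library.

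A member counted as separated when every P14 library lay above every E17.5 library, which held for 14 of 107. The same held for 7.18% of all rows of the table and for 15.6% of the 14044 rows tested below. The members' count is a product of the rule and of sparse reads and is not read further. 4 members, Igkv1-117, Ighv2-9, Ighv7-3 and Igkv1-110, reached 1 FPKM in 4 or more libraries, the filter for those tests.

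Igkv1-117 was the highest segment of all. It had 57.1, 27.7, 27.7 and 87.8 FPKM in P14 replicates 1 to 4, from 286, 180, 185 and 600 reads, and no read at E17.5. All 4 P14 libraries held it strongly, and it led the kappa locus in each of them. Its share of the kappa member reads was 57.8% (95% exact Clopper-Pearson interval 53.3% to 62.2%) in P14 replicate 1 and 44.4% (39.5% to 49.4%) in replicate 2. The share was 51.2% (46.0% to 56.5%) in replicate 3 and 66.4% (63.2% to 69.4%) in replicate 4. These intervals cover counting error only, since reads from 1 cell or clone are not independent.

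Ighv2-9 was the leading heavy chain member by mean. It had 13.4, 8.45, 11.9 and 44.6 FPKM in P14 replicates 1 to 4 and no read at E17.5. P14 replicate 4 stood above the other P14 libraries, where Ighv2-9 took 48.6% (44.2% to 53.1%) of the heavy chain member reads. It also led in P14 replicate 2, with 29.8% (22.6% to 37.8%), and in replicate 3, with 26.5% (21.1% to 32.5%).

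Ighv7-3 led the heavy chain of P14 replicate 1, with 23.4% (19.2% to 27.9%) of its member reads. Its levels were 17.6, 1.97, 6.65 and 8.97 FPKM in P14 replicates 1 to 4, with no read at E17.5. The deposited table lists Ighv7-3 as a V segment pseudogene, whereas GENCODE M21 lists a gene of that name as an immunoglobulin V gene. Its closest relative, Ighv7-2, had no read in any P14 library. Ighv7-1 carries the same pair of annotations, and Ighv1-2 and Igkv1-108 are pseudogenes in both sources.

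**Figure D1:**
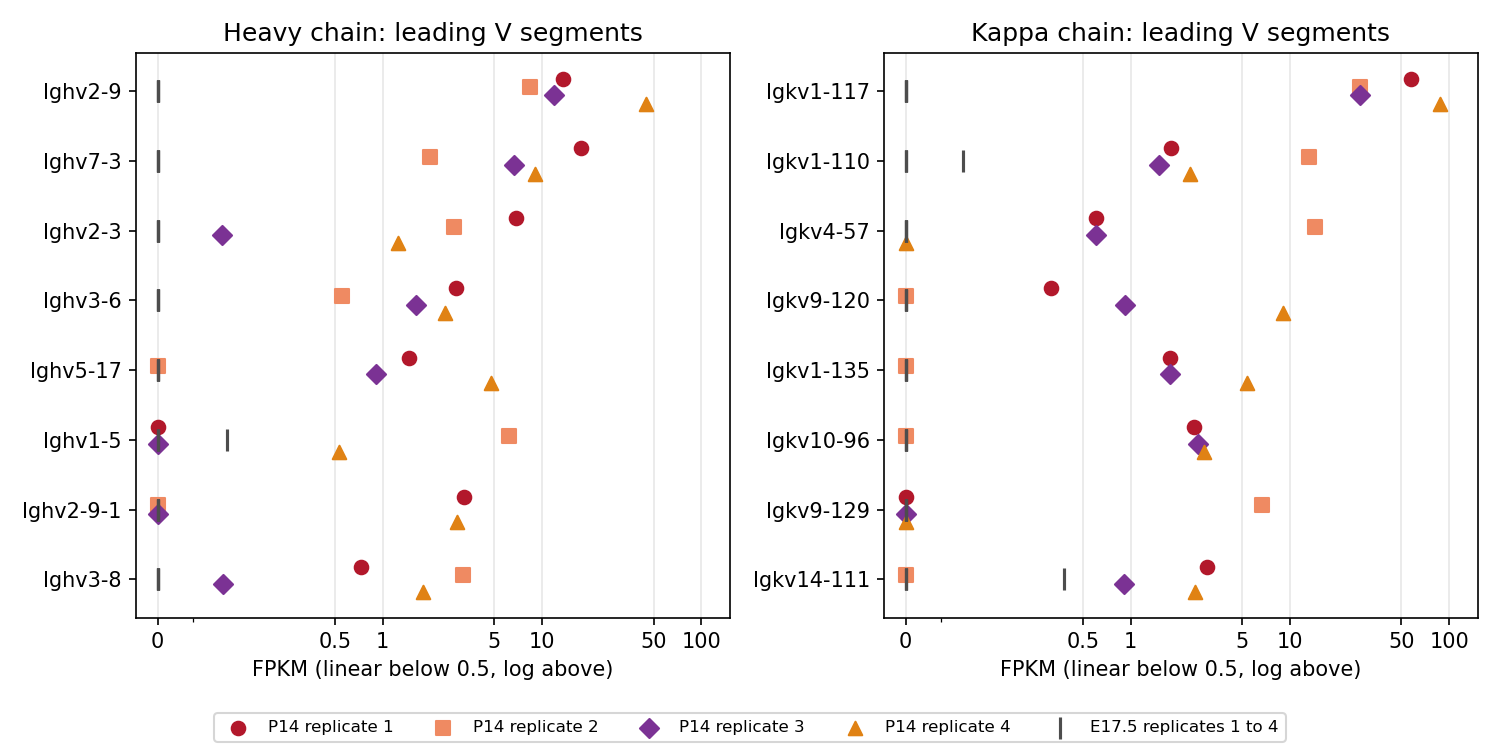
FPKM (x axis, linear below 0.5 and log above) of the 8 heavy chain and 8 kappa members with the highest P14 mean, 1 coloured symbol per P14 library and a grey bar per E17.5 library. Igkv1-117 lies at 27.7 to 87.8 FPKM in all 4 P14 libraries, while Igkv9-129 is seen in P14 replicate 2 alone.

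Behind the leaders, the libraries differed in which segments were high. P14 replicate 2 held several segments that the other libraries had little of. Igkv4-57 had 14.3 FPKM there, against 0.608, 0.606 and 0 FPKM in P14 replicates 1, 3 and 4. Igkv1-110 had 13.1 FPKM in replicate 2, against 1.80, 1.49 and 2.34 FPKM in the same 3 libraries. Igkv9-129 had 6.68 FPKM, from 43 reads, in replicate 2 and no read in any other library. Ighv1-5 had 6.16 FPKM in replicate 2, 0.533 FPKM in P14 replicate 4 and no read in replicates 1 and 3. Ighv3-8 was also highest there, at 3.20 FPKM, against 0.735, 0.183 and 1.80 FPKM in replicates 1, 3 and 4.

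Other libraries had leaders of their own. Igkv9-120 had 9.01 FPKM in P14 replicate 4, against 0.410, 0 and 0.920 FPKM in replicates 1, 2 and 3. Ighv5-17 and Igkv1-135 were highest in the same library, at 4.80 and 5.34 FPKM, and neither had a read in P14 replicate 2. Ighv2-3 was highest in P14 replicate 1, at 6.81 FPKM, against 2.81, 0.182 and 1.25 FPKM in replicates 2, 3 and 4.

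Other members had little or nothing in P14 replicate 2. Igkv10-96 had 2.48, 2.63 and 2.88 FPKM in P14 replicates 1, 3 and 4 and no read in replicate 2. Igkv14-111 had 3.03, 0.907 and 2.52 FPKM in the same libraries and also no read in replicate 2. Ighv2-9-1 reached 3.24 FPKM in P14 replicate 1 and 2.92 FPKM in replicate 4, with no read in replicates 2 and 3. Ighv3-6 was read in all 4, at 2.89, 0.556, 1.62 and 2.47 FPKM.

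**Figure D2:**
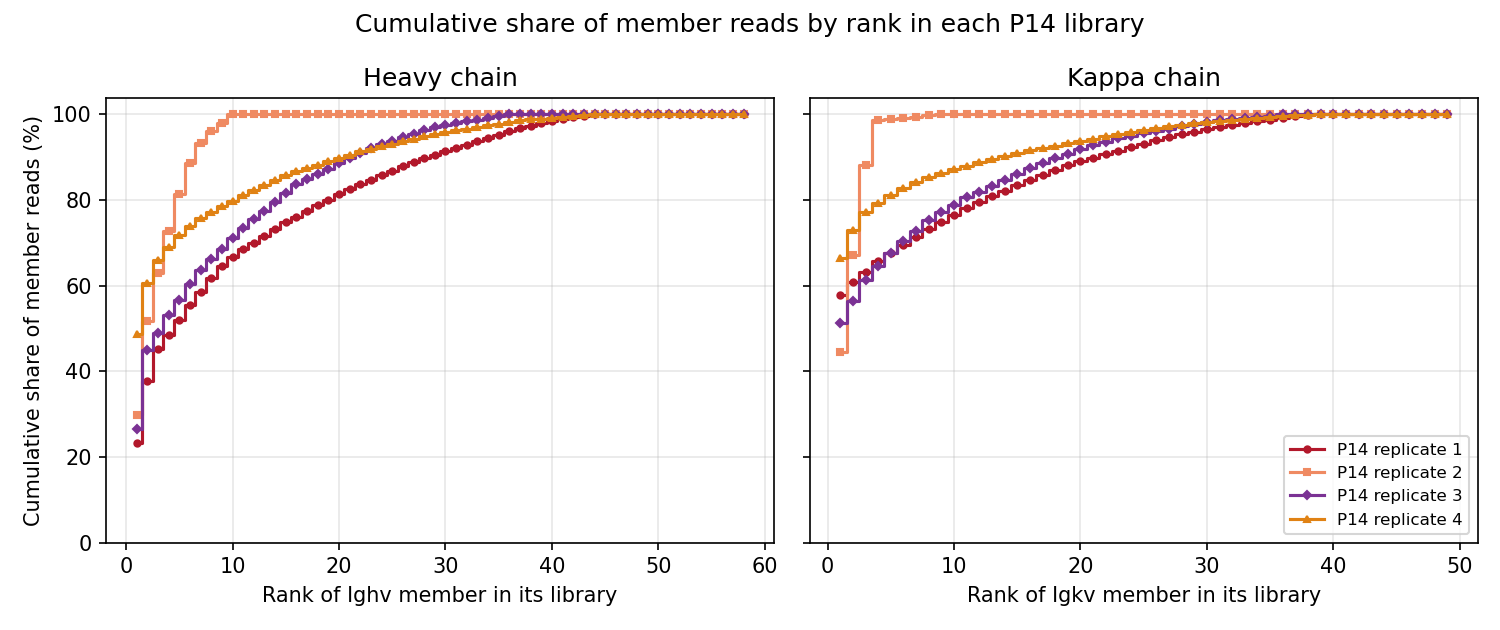
Cumulative percent of member reads (y axis) against the rank of a member within its library (x axis), 1 line per P14 library, heavy chain left and kappa right. The line of P14 replicate 2 reaches 99.0% of the kappa reads at rank 5, against 67.6% to 81.1% in the other P14 libraries.

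How few segments held the reads was measured by the effective number, the inverse of the summed squared read shares, which is the number of equally used segments that would give the same concentration. For the heavy chain it was 10.9, 5.70, 8.53 and 3.87 in P14 replicates 1 to 4. For kappa it was lower in each library, at 2.94, 3.28, 3.64 and 2.23. P14 replicate 4, the library with most segment reads, thus had the lowest effective number in both loci. By the share of the 5 highest members, P14 replicate 2 was the most concentrated in both. The 5 highest kappa members held 67.7%, 99.0%, 67.6% and 81.1% of the kappa member reads in P14 replicates 1 to 4. The 5 highest heavy chain members held 52.0%, 81.5%, 56.7% and 71.9%.

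The number of segments differed more than the number of reads. At 0.5 FPKM or more, P14 replicates 1 to 4 held 68, 13, 39 and 57 of the 107 members, against 0, 0, 0 and 2 in E17.5 replicates 1 to 4. P14 replicate 2 held by far the fewest of the P14 libraries, 9 heavy chain and 4 kappa members. With at least 1 read, the P14 counts were 83, 19, 72 and 83. Replicate 2 was lowest at matched depth too. When all V rows of each P14 library were drawn down to 558 reads, the number in P14 replicate 2, the expected number of segments with a read was 102, 20, 97.4 and 84.9. In P14 replicate 1 the library size behind the deposited FPKM was smaller than its assigned reads, by a factor of 0.78, while in the other libraries the factor was 1.02 to 1.06, so a given number of reads is worth more FPKM there.

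**Figure D3:**
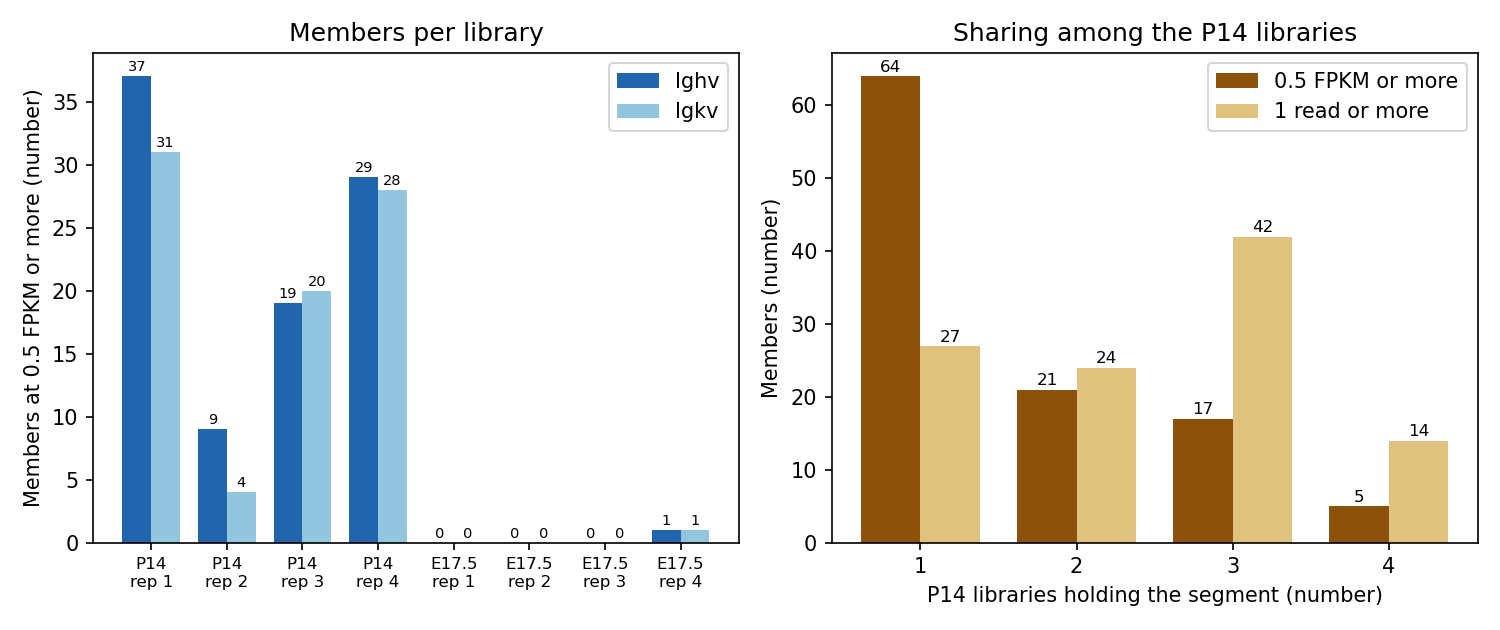
Left, number of heavy chain and kappa members at 0.5 FPKM or more in each library, P14 before E17.5. Right, number of members by how many P14 libraries hold them, by either criterion. P14 replicate 2 holds 9 and 4 members, and 64 of 107 members reach the threshold in 1 P14 library only.

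Most members reached the threshold in few libraries. At 0.5 FPKM or more, 64 of 107 members were in 1 P14 library, 21 in 2, 17 in 3 and 5 in all 4. The 5 in all 4 were Igkv1-117, Ighv2-9, Ighv7-3, Igkv1-110 and Ighv3-6. Without P14 replicate 2, 18 members were in all 3 remaining P14 libraries. Counting any read instead, 27 members were in 1 P14 library, 24 in 2, 42 in 3 and 14 in all 4. The members at 0.5 FPKM in 1 library alone had a median of 4 reads there in P14 replicates 1 and 4, and of 6 in replicate 3, close to the threshold.

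Private segments were spread unevenly. P14 replicates 1 to 4 held 29, 2, 11 and 22 members that no other P14 library had at 0.5 FPKM, and 8, 1, 7 and 11 of these had no read at all in another P14 library. The highest private segment was Igkv9-129 in P14 replicate 2, and in the other P14 libraries the highest was 2.05 FPKM for Igkv10-94 in replicate 1. P14 replicates 1 and 4 shared 31 members, which is 45.6% of those of replicate 1 and 54.4% of those of replicate 4. P14 replicate 2 shared 10 of its 13 members with replicate 1, 6 with replicate 3 and 9 with replicate 4.

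The edge of the rule lay at 3 reads. Just inside were Ighv1-42 at 0.506 FPKM, Igkv1-108 at 0.512 FPKM and Ighv8-5 at 0.532 FPKM, with 3 reads each in their highest library. Just outside were Ighv1-7, Ighv5-9-1 and Ighv9-4, all at 0.485 FPKM from 2 reads in P14 replicate 1. Ighv1-7, left out, had 4 reads in E17.5 replicate 3, which shows how little separates members from other rows at this edge.

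Members were mostly annotated V segments. Of the 222 V segment rows 103 were members, and of the 123 pseudogene rows 4. The Ighv2 family, to which Ighv2-9 belongs, had 8 of its 11 rows among the members and 31.7%, 42.6%, 38.7% and 59.4% of the heavy chain member FPKM in P14 replicates 1 to 4. The Ighv1 family is the largest, with 92 rows, of which 25 were members, and held 21.4%, 25.1%, 14.7% and 11.4%. The 2 Ighv7 members held 20.9%, 7.18%, 18.05% and 10.5%. In the kappa locus 4 of the 13 Igkv1 rows were members, near the share over all Igkv rows, and these 4, with Igkv1-117 among them, held 61.0%, 65.1%, 56.8% and 72.2%.

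Members lay along the whole of both loci. Distance was taken from the joining segments, to which a V segment is brought during rearrangement. When the 120 Ighv rows annotated as V segments were split by distance into 3 equal parts, the nearest part had 24 of its 40 rows among the members, against 15 in the middle and 16 in the farthest part. Members in the stretch spanned by the nearest part held 72.67%, 74.9%, 74.5% and 85.1% of the heavy chain member FPKM in P14 replicates 1 to 4, and Ighv2-9 and Ighv7-3 both lie in it. In the kappa locus the farthest part had 19 of its 34 rows among the members, against 15 in the nearest and 14 in the middle. It held 75.8%, 76.3%, 75.4% and 89.2% of the kappa member FPKM, most of it from Igkv1-117, which lies 2601 kb from the joining segments. The heavy chain members ran from Ighv5-2, at 149 kb, to Ighv1-86, at 2580 kb, and the kappa members from Igkv3-2, at 23.5 kb, to Igkv2-137, at 3166 kb. The median distance was 1022 kb for heavy chain members and 1244 kb for all Ighv rows annotated as V segments, and 1222 kb for kappa members and 1294 kb for all such Igkv rows. No difference in position was tested.

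**Figure D4:**
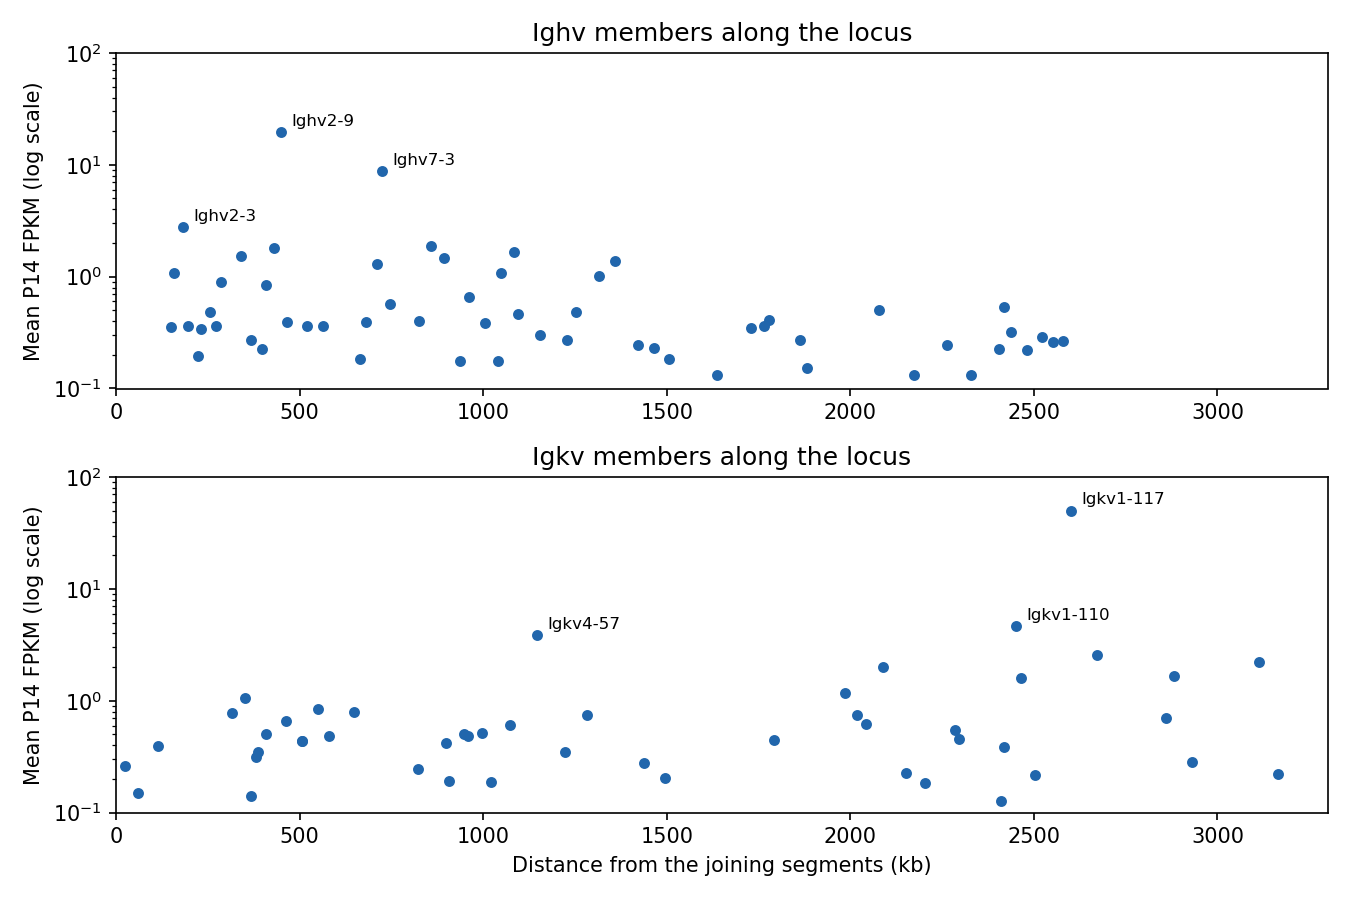
Mean P14 FPKM of each member (y axis, log scale) against its distance from the joining segments in kb (x axis), heavy chain above and kappa below; the 3 highest members of each locus are named. Igkv1-117 is at 2601 kb, and Ighv2-9 is at 449 kb.

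The constant regions, which the rule did not use, rose with the segments. limma was run on log2(FPKM + 1) over 14044 genes with 1 FPKM or more in at least 4 libraries, with Benjamini-Hochberg adjustment over all of them. It called 9.72% of these genes higher at P14 and 15.0% lower at an adjusted p under 0.05. All 5 tested constant regions were called higher. Of these, Igha, Iglc2 and Iglc3 reached 1 FPKM at P14 only, so passing the filter already required a difference. Igkc, the kappa constant region, had 246, 162, 126 and 325 FPKM in the P14 libraries, against 0, 0.720, 0.330 and 1.88 FPKM in the E17.5 libraries. At E17.5 only replicate 4 reached 1 FPKM, so Igkc too passed the filter through P14 libraries. Its log2 difference was 6.98, with a limma adjusted p of 0.000263. Igha had 52.4, 81.4, 35.5 and 123 FPKM at P14, against 0, 0, 0.172 and 0 FPKM at E17.5, a log2 difference of 6.004 (limma adjusted p = 0.000263). Iglc2 and Iglc3, near-identical lambda constant regions, were called with log2 differences of 3.81 (limma adjusted p = 0.00934) and 3.64 (limma adjusted p = 0.00986), and neither had a read at E17.5.

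Ighm behaved differently, being well detected at E17.5 too. It had 102, 12.5, 67.9 and 111 FPKM in P14 replicates 1 to 4, against 10.6, 8.34, 15.1 and 9.97 FPKM in E17.5 replicates 1 to 4. P14 replicate 2 fell inside the E17.5 range and the other P14 libraries lay above it. The log2 difference of 2.28 was called (limma adjusted p = 0.0346), but the call was lost on leaving out any 1 library other than P14 replicate 2, with adjusted p from 0.0537 to 0.0885. At E17.5 the 216 to 428 reads of Ighm stood beside 0 to 6 reads over all Ighv rows.

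The lambda V segments, also outside the rule, could be tested as 1 summed level per library. On the log2(1 + FPKM) scale the sum was 2.51 ± 0.70 at P14 and 0.05 ± 0.10 at E17.5 (SD, n = 4 each). An exact permutation test of the difference, 2.46, gave a two-sided p of 0.0286, the smallest that 70 assignments allow. In FPKM the lambda segments summed to 8.02, 2.18, 3.63 and 6.93 in the P14 libraries, against 0, 0, 0.150 and 0 in the E17.5 libraries. The kappa rows summed to 12.9, 28.8, 16.3 and 19.9 times these lambda values in P14 replicates 1 to 4.

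**Figure D5:**
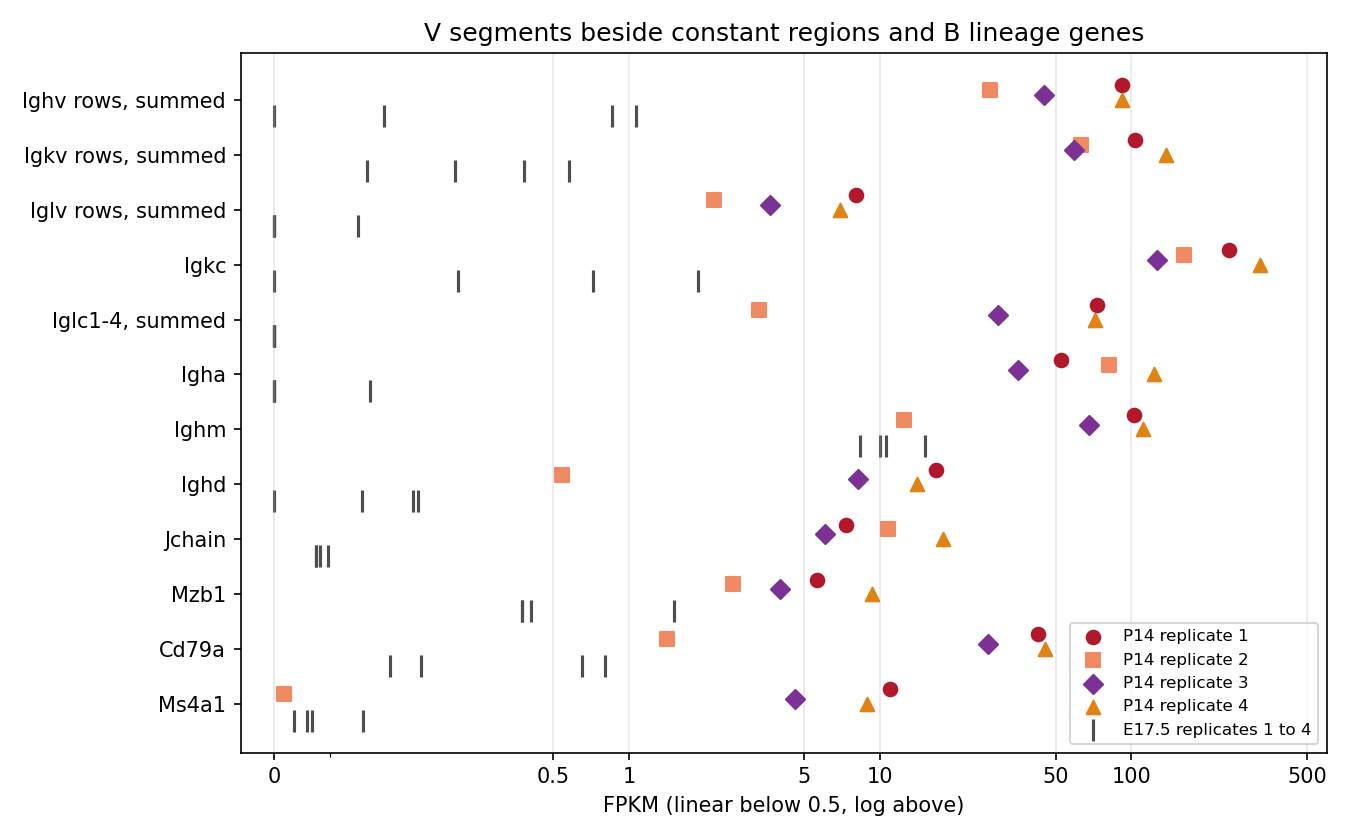
FPKM (x axis, linear below 0.5 and log above) of summed V rows, constant regions and B lineage genes in each library, P14 as coloured symbols and E17.5 as grey bars. P14 replicate 2 lies with the other P14 libraries for Igkc, Igha and Jchain, but at 0.0184 FPKM for Ms4a1.

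P14 replicate 2 differed from the other P14 libraries in class and light chain as well as in segments. The ratio of Igha to Ighm FPKM was 0.512, 6.53, 0.523 and 1.10 in P14 replicates 1 to 4. The ratio of Igkc to the summed lambda constant regions was 3.35, 49.3, 4.26 and 4.52. Ighd, the IgD constant region that mature unswitched B cells carry, had 16.8, 0.544, 8.21 and 13.997 FPKM. In all 3, replicate 2 was the odd library. The ratio of V to constant RNA did not single it out for kappa, where the Igkv rows summed to 0.423, 0.388, 0.471 and 0.424 times Igkc. For the heavy chain it was the lowest, at 0.528, 0.290, 0.381 and 0.368 times the heavy chain constant regions.

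Jchain and Ms4a1 stood in different orders over the P14 libraries. Jchain, which links IgA and IgM into polymers, had 7.33, 10.7, 6.04 and 17.8 FPKM in P14 replicates 1 to 4, against 0.0744 to 0.0955 FPKM at E17.5. It was called with a log2 difference of 3.30 (limma adjusted p = 0.000624). Ms4a1, a surface protein of B cells that plasma cells lose, missed the filter. It had 10.9, 0.0184, 4.59 and 8.89 FPKM at P14, against 0.0350 to 0.159 FPKM at E17.5. P14 replicate 2 was thus far below the other P14 libraries for Ms4a1, with 1 read there, near the floor like the 2 to 9 reads at E17.5. Its Jchain level was the second highest of all libraries. Other plasma cell genes were mixed. Derl3 stood in the order of Jchain, at 0.902, 0.979, 0.596 and 1.24 FPKM in P14 replicates 1 to 4. Txndc5 had 45.3, 60.9, 55.1 and 66.1 FPKM in the same libraries, where replicate 2 was again second highest. At E17.5, Derl3 ran from 0.314 to 0.892 FPKM and Txndc5 from 64.8 to 82.9 FPKM. In P14 replicate 2, Txndc5 thus lay below every E17.5 library, and Derl3 was little above the highest. The 15 plasma cell genes summed to 217, 146, 147 and 189 FPKM in P14 replicates 1 to 4, against 170 to 186 FPKM at E17.5. Of the P14 libraries, replicate 2 was the lowest for Mzb1, at 2.60 FPKM, Irf4, at 0.435 FPKM, and Prdm1, at 2.13 FPKM. Prdm1 had 23.3, 2.13, 3.91 and 2.71 FPKM in P14 replicates 1 to 4, in the order of the epithelial sum. It ran from 1.70 to 2.58 FPKM at E17.5. How much epithelial RNA adds to Prdm1 and to the plasma cell sum was not tested.

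Among 49 constant region, plasma cell and mature B cell genes, 22 were tested. Of these, 10 were called higher at P14, 1 lower and 11 neither, beside 9.72% higher and 15.0% lower over all tested genes. The median log2 difference of the 22 was 1.09, beside 0.00219 over all tested genes. Of the 10, Igha, Iglc2, Iglc3, Jchain and Cd79a reached 1 FPKM at P14 only, so passing the filter already required a difference. Igkc reached it at E17.5 in replicate 4 alone and Mzb1 in replicate 3 alone, so these too passed through P14 libraries. The number called higher was 6 without E17.5 replicate 3 and 17 with a filter of 0.1 FPKM.

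Of 9 tested plasma cell genes, 2 rose and 1 fell, beside 9.72% and 15.0% of all tested genes. Mzb1, a chaperone of antibody secretion, rose by 1.83 (limma adjusted p = 0.00787) with Jchain, and Xbp1, a secretory factor also active in other cells, fell by 0.54 (limma adjusted p = 0.0307, lost under 7 of the leave-one-out fits). Txndc5, the highest of the list, averaged 56.8 ± 8.9 FPKM at P14 and 73.8 ± 9.2 FPKM at E17.5 (SD, n = 4 each) and was not called. Of 8 tested mature B cell genes, 3 rose. They were Cd79a, part of the B cell receptor (3.72, limma adjusted p = 0.0202), Cd72, a B cell surface protein (1.21, limma adjusted p = 0.0156), and Ralgps2 (0.42, limma adjusted p = 0.0400). Leaving out a library ended the call of Cd79a in 5 of 8 cases and that of Ralgps2 in 7 of 8.

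Genes that rearrange V segments stayed near 0 at both ages. Rag1, a subunit of the recombinase, was at 0 to 0.0160 FPKM in the P14 libraries and at 0.00781 to 0.0604 FPKM in the E17.5 libraries. Dntt, which adds bases at the joins, was at 0 to 0.146 FPKM at P14 and 0 to 0.134 FPKM at E17.5. Of the precursor list 1 of 9 genes, Il7r, was tested and it was not called.

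Genes of the niche were called in both directions. Of 11 tested genes for IgA homing, induction and export, 2 were called higher and 3 lower. The shares over all tested genes were 9.72% higher and 15.0% lower, and counts this small are not read beyond them. The counts were 5 higher and 1 lower without P14 replicate 2, and 1 higher and 0 lower without any 1 of E17.5 replicates 1, 2 and 3. Without P14 replicate 3 or E17.5 replicate 4 they were 1 and 1, and 1 and 3 without P14 replicate 4. With all libraries, the lower genes were Itga4 (-0.77, limma adjusted p = 0.0384), Tgfb1 (-0.62, limma adjusted p = 0.0248) and Cd40 (-0.51, limma adjusted p = 0.0375). Leaving out a library ended these calls in 5, 4 and 7 of 8 cases. Ltbr, the lymphotoxin receptor of lymphoid tissue stroma, rose by 0.91 (limma adjusted p = 0.00375). Ccl25, a chemokine that draws lymphocytes to the small intestine, rose by 2.15 (limma adjusted p = 0.0449), and its P14 values of 27.05, 1.55, 7.07 and 3.42 FPKM were highest in replicate 1, the library with most epithelial RNA. Ccl25 was under 1 FPKM in all 4 E17.5 libraries, so passing the filter already required a difference, and its call was lost in 6 of 8 cases on leaving out a library. Pigr, the epithelial receptor that exports IgA, missed the filter and had 19.1, 0.271, 9.16 and 1.996 FPKM in the P14 libraries, in the same order as the epithelial sum. The part of epithelial RNA in these values was not tested.

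Of 6 tested B lineage transcription factors, 1 was higher and 2 lower, Bhlhe41 (0.70, limma adjusted p = 0.00961) against Ets1 (-1.03, limma adjusted p = 0.00242) and Spi1 (-0.53, limma adjusted p = 0.0284). Bhlhe41 had 1.39, 1.16, 1.22 and 2.04 FPKM at P14, against 0.579, 0.348, 0.456 and 0.615 FPKM at E17.5, so it too passed the filter through P14 alone. Leaving out a library ended the call of Spi1 in 6 of 8 cases. Of 4 tested germinal centre genes, S1pr2 was lower (-0.88, limma adjusted p = 0.0197), a call lost in 3 of 8 cases on leaving out a library. Of 7 tested Fc receptor genes, 4 were lower and none higher, and without P14 replicate 2, 1 was higher. Beside these counts, 9.72% of all tested genes were called higher and 15.0% lower.

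Other cell types moved at the same time as the segments. Of 9 tested epithelial genes 8 were higher, and of 7 tested macrophage genes 6 were lower. Over all tested genes 9.72% were called higher and 15.0% lower. Of the 8 epithelial genes, Cldn7, Elf3 and Cldn3 were under 1 FPKM in all 4 E17.5 libraries. For these, passing the filter already required a difference. Vil1 reached 1 FPKM at E17.5 in replicate 1 alone, so it too passed through P14 libraries. The epithelial count was 0 without P14 replicate 3 or E17.5 replicate 3, 1 without any 1 of E17.5 replicates 1, 2 and 4, and 7 to 9 without P14 replicate 1, 2 or 4, while 5 to 7 macrophage genes were lower without any 1 library. Of 6 tested fibroblast genes 1 was lower, and none of 6 smooth muscle or 5 T cell genes was called. Without P14 replicate 1, all 6 smooth muscle genes were called higher, with a median log2 difference of 1.16, and 2 fibroblast genes were higher and 1 lower. Without P14 replicate 2, 2 T cell genes were called higher. The 13 T cell genes summed to 71.0, 14.8, 47.1 and 102 FPKM in the P14 libraries, against 23.9 to 31.8 FPKM in the E17.5 libraries. P14 replicate 2 was thus lowest in T cell as in mature B cell genes. The epithelial, T cell and mature B cell sums all differed between P14 libraries. The mature B cell genes summed to 194, 21.7, 121 and 193 FPKM in P14 replicates 1 to 4. Among these sums, only this one stood in the order of the number of members at 0.5 FPKM or more. The part of any of them in that number was not tested.

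Outside the immunoglobulin loci, the genes whose log2(FPKM + 1) followed the summed members most closely by Pearson correlation over the 8 libraries were Tbc1d9, Smim14, Tigar, Pfkp and H1f2. All differed between the ages, which form separate clusters, so no coefficient is given.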

How the data were processed

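RNA-seq libraries from 4 P14 and 4 E17.5 mice were analysed. Per the labels' protocols, TRIzol extraction was followed by an NEBNext Ultra library kit. The deposited table gives an FPKM value per gene and library. Per the submitters' processing notes, the tools were HISAT2, featureCounts, CASAVA, fastp and DESeq2 1.20.0, with no role named for any, and the build was GRCm39.

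Within a library, FPKM times gene length came in whole steps (100% of values, tolerance 1e-06), which are the reads quoted here. They served only to describe, with no count test. The 302 rows without a gene name kept their place in the tests.

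Members and gene lists were chosen with earlier results of these data known. Genes with 1 FPKM or more in at least 4 libraries were tested in limma 3.58.1 (R 4.3.3, trend and robust, two-sided) on log2(FPKM + 1), which understates changes of low genes. Of 150 list symbols, 149 matched. The fit was tested on simulated data. The members named were those with the highest P14 or E17.5 means, each library's leader, those at the threshold and those at the ends of each locus. Of the lists, called members with the largest change and the highest member were eligible. Igkv10-94, Ighv7-1, Ighv1-2, Ighv2-6-8, Ms4a1, Ighd, Derl3, Rag1, Dntt, Tgfb1, Cd40, Elf3, Cldn3 and Pigr were named after their values were seen. V exons were compared with Biopython 1.88. Intervals are at 95%. Alternatives were another pseudocount, filter, scaling to TPM, replicate block, threshold and leaving out each library.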

Additional observations from a re-analysis of the deposited data

Results flagged for a closer look

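The 40 values or levels were each checked at both ages, where all 4 libraries had a value. Over both ages together, 17 cases had 1 of 4 libraries far from the other 3 by Dixon's criterion. The ratio of Igha to Ighm, Ighv1-5 and Igkv1-110 counted at both ages. Chance meets the criterion in about 1 in 20 groups of evenly scattered values. Sparse reads, where 3 libraries are at 0, meet it whenever 1 library has a read.

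Most P14 cases were in replicate 2. Igkv4-57 was at 14.3 FPKM there, Igkv1-110 at 13.1, Igkv9-129 at 6.68 and Ighv1-5 at 6.16, each above the other P14 libraries, while Igkv10-96 was at 0 FPKM there and at 2.48 to 2.88 FPKM elsewhere. The ratio of Igha to Ighm was 6.53 and that of Igkc to the lambda constant regions 49.3 in the same library. In P14 replicate 4, Ighv2-9 was at 44.6 FPKM and Igkv9-120 at 9.01 FPKM.

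At E17.5, replicate 2 alone held a read of Ighv1-5 (0.196 FPKM) and of Igkv1-110 (0.161 FPKM). Replicate 3 alone held Igkv14-111 (0.448 FPKM) and Igha (0.172 FPKM, so that Igha was 0.0114 times Ighm), and its Mzb1 was at 1.51 FPKM. Replicate 4 alone had members at 0.5 FPKM or more, 1 heavy chain and 1 kappa.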

How the results depend on the processing

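The number of members, 107 at 0.5 FPKM, was 59 at 1 FPKM, 153 at 0.5 TPM and 29 when 10 reads were required, an alternative chosen after seeing the data, and ran from 78 to 105 without 1 P14 library. Members in all 4 P14 libraries numbered 5, against 9 at 0.5 TPM (a lower bar), 3 at 10 reads and 5 to 18 without 1 library, the 18 being without P14 replicate 2. Members in 1 P14 library numbered 64, against 39 at 1 FPKM, 17 at 10 reads and 52 to 64 without 1 library. Members at the threshold in an E17.5 library numbered 2, against 0 at 1 FPKM, 0 at 10 reads, 7 at 0.5 TPM and 1 to 2 without 1 P14 library. The 3473 genes called became 1735 to 6958 without 1 library, lowest without E17.5 replicate 3 and highest without P14 replicate 1. The 10 B lineage genes called higher became 17 with a filter of 0.1 FPKM and 6 to 13 without 1 library. Under TPM the median of all tested genes moved to -0.18 and the calls to 899 higher and 2678 lower, against 1365 and 2108. Deviations of same-numbered P14 and E17.5 libraries correlated at -0.064 to 0.009, which gave no sign that the numbers pair them. Such correlations cannot exclude that same-numbered libraries were handled together. With the replicate block 1744 genes were called, Cd79a, Ralgps2, Xbp1, Spi1, S1pr2 and Ccl25 were among those that missed the threshold, called epithelial genes numbered 1 against 8, and the lambda difference of 2.46 had an exact sign-flip p of 0.125, the smallest that 4 pairs allow. Without P14 replicate 1 the fibroblast genes Col3a1 and Dcn were called higher, at 0.30 and 0.23, against -0.07 and -0.12, neither called, with all libraries. The causes were not tested. Depth limits every count of segments near 3 reads.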
